A study of Mus musculus with 6 samples.

Results

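The complement genes C1qa, C1qb, C1qc, C3, C4b, Cfb, Cd55, C3ar1 and C5ar1 were examined in tumor endothelial cells (ECs) of WT and Apelin-KO mice. They were taken by their symbols as a set of components, regulators and receptors of complement, and all 9 were found among the 24346 gene symbols of the data. RNA-sequencing values were available for 6 samples, 3 from WT mice and 3 from mice in which Apelin is knocked out, all on the C57BL/6 background and 8 to 10 weeks of age when used in the study. Each mouse carried a subcutaneous tumor of MC38 cells, a mouse colon carcinoma line, and the ECs were taken at day 19 after inoculation by sorting enzyme-digested tumors for CD31+ and CD45- cells. All 6 sample names also contain the word saline, and how saline was given is not described for these samples. The sources do not say whether each sample came from a separate mouse or from pooled mice, so that p-values measure the spread between these samples, which may be technical in part.

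Complement is a cascade of plasma and cell-surface proteins that tags targets, recruits leukocytes and can form pores in membranes. In the classical pathway, C1q built from the chains C1qa, C1qb and C1qc binds antibody and other ligands, after which C4 and C2 and then C3 are cleaved. In the alternative pathway, factor B (Cfb) joins C3 to form the enzyme that cleaves more C3. Tissue macrophages are a well-known source of C1q, whereas ECs carry regulators such as CD55 that keep complement off their own surface.

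Expression is given in FPKM, which scales fragment numbers by transcript length and library size, so that levels can be compared between genes. Apln, the deleted gene, was 432, 435 and 504 FPKM in WT 1, 2 and 3 and 9.96, 17.5 and 24.3 FPKM in Apelin-KO 1, 2 and 3, so the labels held in every sample. Read numbers were not given, and the step that 1 read makes in low FPKM values pointed to between 8960000 and 10240000 reads per sample, an estimate in which 67.7% to 71.4% of the low values used came within 0.1 of a whole read. The test was limma on log2(FPKM + 1), applied where a gene averaged 1 FPKM or more, which kept 10964 genes and 8 of the 9 complement genes. C4b, with a mean of 0.672 FPKM, was left out. Fold changes on this scale are WT minus Apelin-KO and understate the change of low genes.

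By mean level over the 6 samples, Cfb was highest at 102 FPKM, followed by C1qb at 59.5, C1qc at 54.7, C1qa at 27.5, C3ar1 at 7.50, C5ar1 at 5.87, Cd55 at 3.71, C3 at 2.15 and C4b at 0.672 FPKM. The ranges of every pair of neighbours in this order overlapped across samples. Within samples, C1qc lay above C1qa, C1qa above C3ar1, C3ar1 above C5ar1 and C3 above C4b in 6 of 6 samples. Cfb lay above C1qb in 5 of 6 samples, the exception being WT 2. C5ar1 lay above Cd55 in all 3 WT samples and in 0 of the 3 Apelin-KO samples.

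**Figure D1:**
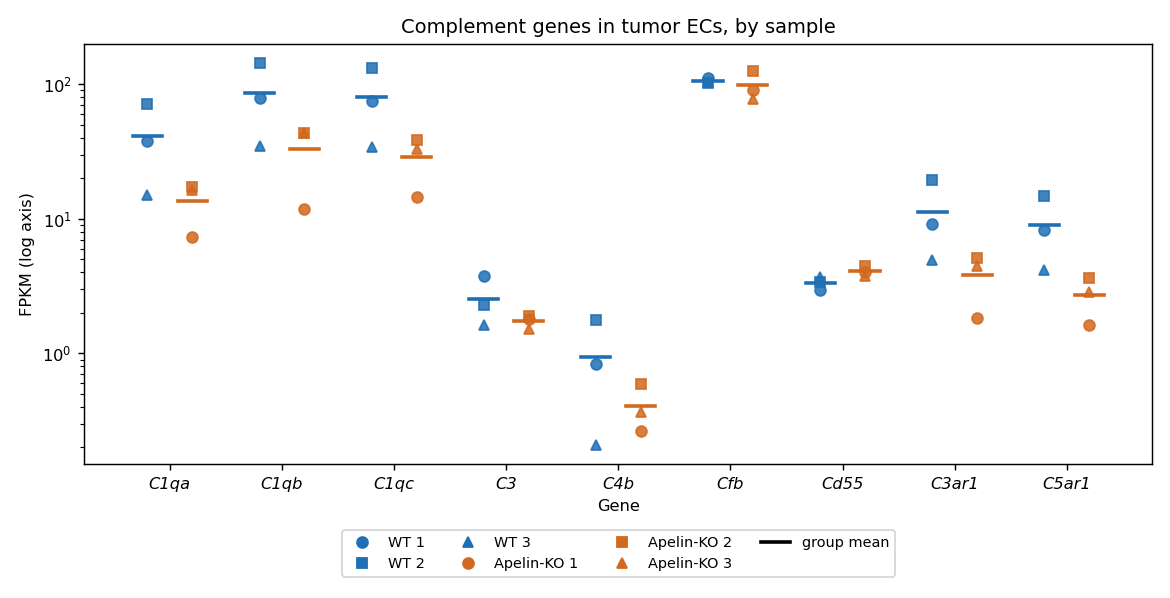
FPKM on a log axis of the 9 complement genes in 3 WT (blue) and 3 Apelin-KO (orange) samples, with 1 marker shape per sample number and a bar at each group mean. WT 2 is the highest and Apelin-KO 1 the lowest sample for the C1q chains and for C3ar1 and C5ar1, while Cfb and Cd55 are spread over a narrow range.

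The mean levels of the C1q chains were higher in WT ECs by between 2.61- and 3.03-fold, but the samples overlapped and none of the chains passed the test over all genes. In such bulk samples, fewer cells of a type and less RNA per cell cannot be told apart. C1qa was 38.0, 71.2 and 15.0 FPKM in WT 1, 2 and 3 and 7.28, 17.2 and 16.5 FPKM in Apelin-KO 1, 2 and 3. WT 1 and WT 2 lay above every Apelin-KO sample, while WT 3 lay below Apelin-KO 2 and Apelin-KO 3. The means were 41.4 ± 28.3 FPKM (SD, n = 3) and 13.6 ± 5.52 FPKM (SD, n = 3). On the log2 scale C1qa differed by 1.37, with a standard error of 0.56 and a Benjamini-Hochberg adjusted p-value of 0.522 in limma. An exact permutation test gave a two-sided p of 0.3, where 0.1 is the smallest that 3 samples against 3 allow.

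C1qb was 79.4, 144 and 35.0 FPKM in WT ECs and 11.8, 43.5 and 43.7 FPKM in Apelin-KO ECs, in the order of the sample numbers. Again WT 3 lay below Apelin-KO 2 and Apelin-KO 3. The means were 86.1 ± 54.6 FPKM and 33.0 ± 18.4 FPKM (SD, n = 3 each). The log2 difference of C1qb was 1.35 with a standard error of 0.64 (adjusted p = 0.552, limma). C1qc was 75.1, 132 and 34.1 FPKM in WT ECs and 14.5, 38.6 and 33.3 FPKM in Apelin-KO ECs. For this chain WT 3 lay between Apelin-KO 3 and Apelin-KO 2. The means were 80.5 ± 49.4 FPKM and 28.8 ± 12.6 FPKM (SD, n = 3 each). Its log2 difference was 1.36 with a standard error of 0.53 (adjusted p = 0.516, limma).

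The chains kept close to a fixed ratio while their levels moved. From the lowest to the highest sample, C1qa spanned 9.78-fold, C1qb 12.2-fold and C1qc 9.10-fold. The ratio of C1qc to C1qa stayed between 1.86 and 2.27, and that of C1qb to C1qa between 1.62 and 2.65, with the lowest value in Apelin-KO 1. Neither ratio separated the genotypes, since the C1qc to C1qa ratio was 2.04 ± 0.212 in WT and 2.09 ± 0.137 in Apelin-KO ECs (SD, n = 3 each). Leaving out 1 sample moved the log2 difference of C1qa from 0.86 (without WT 2) to 1.94 (without WT 3), with adjusted p-values from 0.185 to 0.931 over all alternatives. For C1qb the range was 0.75 (without Apelin-KO 1) to 1.87 (without WT 3), and for C1qc 0.90 (without WT 2) to 1.87 (without WT 3).

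In the GENCODE M21 annotation of GRCm38 (mm10, the build of the deposited data), the 3 chain genes lie side by side on chromosome 4 within 18675 bases, all on the minus strand. C1qb spans 136880129 to 136886187, C1qc 136889804 to 136893065 and C1qa 136895917 to 136898803. Promoters of 6 of the 9 genes were found in RefSeq tables of GRCm38.p6, whose start sites can differ from those of GENCODE. The 150 bases before the start site are shown 5′ to 3′ for C1qb, C3ar1 and C3, the promoters in which a searched motif was found, with capitals on the matching letters:
C1qb, chr4:136886201-136886350, minus strand: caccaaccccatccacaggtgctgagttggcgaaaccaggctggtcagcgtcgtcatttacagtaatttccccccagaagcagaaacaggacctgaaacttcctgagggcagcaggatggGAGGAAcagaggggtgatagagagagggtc
C3ar1, chr6:122856158-122856307, minus strand: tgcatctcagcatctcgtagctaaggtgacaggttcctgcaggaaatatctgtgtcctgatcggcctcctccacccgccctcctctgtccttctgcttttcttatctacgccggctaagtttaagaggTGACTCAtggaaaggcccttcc
C3, chr17:57228137-57228286, minus strand: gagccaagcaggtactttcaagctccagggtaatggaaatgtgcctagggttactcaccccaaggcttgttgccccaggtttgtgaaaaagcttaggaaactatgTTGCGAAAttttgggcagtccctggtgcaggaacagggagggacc
The motifs, each searched on both strands, were GAGGAA (the purine box of ETS factors, among them PU.1 of myeloid cells), TTGCNNAA (C/EBP), TGANTCA (AP-1), and also TATAAA, a core promoter element. C1qb held GAGGAA from 30 bases before its start, C3ar1 held the AP-1 letters from 22 bases before and C3 held the C/EBP letters from 45 bases before. The windows of C1qc, C5ar1 and Cd55 held none of the 4 motifs, and those of C1qc and C5ar1 lie before the RefSeq start but inside the longer GENCODE gene. The letters TATAAA were in none of the 6 windows. Of 32843 promoter windows of the same length, 14.5% held GAGGAA, 4.24% TGANTCA, 5.46% TTGCNNAA and 7.58% TATAAA. These matches describe letters in a window and no more.

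For the receptors of the small C3 and C5 fragments, as for the C1q chains, WT 2 was the highest sample, WT 1 the next and Apelin-KO 1 the lowest. C3ar1, the receptor of the C3 fragment, was 9.16, 19.4 and 4.98 FPKM in WT 1, 2 and 3 and 1.84, 5.16 and 4.47 FPKM in Apelin-KO 1, 2 and 3. Only Apelin-KO 2 reached above WT 3, and by a small margin. The means were 11.2 ± 7.40 FPKM and 3.82 ± 1.75 FPKM (SD, n = 3 each), or 2.92-fold apart. The log2 difference of C3ar1 was 1.23 with a standard error of 0.47 (adjusted p = 0.515, limma). C5ar1, which binds the C5 fragment and draws neutrophils and macrophages, was 8.31, 14.7 and 4.15 FPKM in WT ECs and 1.63, 3.62 and 2.87 FPKM in Apelin-KO ECs. The WT samples were all higher than the Apelin-KO samples, and an exact permutation test gave its smallest p of 0.1 (two-sided). The means were 9.04 ± 5.30 FPKM and 2.71 ± 1.003 FPKM (SD, n = 3 each), or 3.34-fold apart. Its log2 difference was 1.33 with a standard error of 0.40, and the adjusted p-value was 0.501 in limma. Without WT 2 the difference was 0.94, and without WT 3 it was 1.74. C3ar1 moved from 0.77 without WT 2 to 1.65 without WT 3. The lowest values stood for few reads, an estimated 35.7 reads of C5ar1 and 70.5 reads of C3ar1 in Apelin-KO 1. C3ar1 lies on chromosome 6 from 122847138 to 122856161 and C5ar1 on chromosome 7 from 16246743 to 16259540, both on the minus strand.

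Cfb, the enzyme component of the alternative pathway, was the most abundant of the 9 genes and differed little between the genotypes. It was 111, 102 and 105 FPKM in WT 1, 2 and 3 and 91.1, 125 and 78.4 FPKM in Apelin-KO 1, 2 and 3. The WT samples all lay inside the Apelin-KO range. The means were 106 ± 4.31 FPKM and 98.3 ± 24.3 FPKM (SD, n = 3 each). The log2 difference was 0.13 with a standard error of 0.17 (adjusted p = 0.837, limma), and its sign turned when Apelin-KO 3 was left out. From the lowest to the highest sample Cfb moved 1.60-fold, against 9.10-fold or more for the C1q chains. Cfb lies on chromosome 17 from 34856374 to 34862518, ending 86 bases from C2, and a longer annotated gene, Gm20547, covers parts of both on the same strand, so that reads could be shared between them.

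C3, the central protein on which all pathways meet, was low in these cells. It was 3.73, 2.31 and 1.63 FPKM in WT 1, 2 and 3 and 1.81, 1.90 and 1.51 FPKM in Apelin-KO 1, 2 and 3. WT 1 stood highest, and WT 3 lay inside the range of the Apelin-KO samples. The means were 2.55 ± 1.07 FPKM and 1.74 ± 0.204 FPKM (SD, n = 3 each), and the log2 difference was 0.33 with a standard error of 0.21 (adjusted p = 0.645, limma). Without WT 1 the difference was 0.11. In each sample Cfb exceeded C3 by between 29.6- and 65.8-fold. C3 lies on chromosome 17 from 57203970 to 57228136 on the minus strand.

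C4b, which encodes C4 of the classical pathway, was 0.830, 1.77 and 0.209 FPKM in WT 1, 2 and 3 and 0.266, 0.597 and 0.365 FPKM in Apelin-KO 1, 2 and 3. WT 3 was the lowest of all samples and WT 2 the highest. The means were 0.935 ± 0.784 FPKM and 0.409 ± 0.170 FPKM (SD, n = 3 each). In the fit without a filter on low genes, the log2 difference was 0.38 with a standard error of 0.30 (adjusted p = 0.750, limma). Without WT 2 the difference of the means was 0.08. The values stood for an estimated 9.84 reads in WT 3 and 82.0 reads in WT 2. C4b lies on chromosome 17 from 34728380 to 34743882, and its near-identical neighbour C4a, from 34809092 to 34823464, was listed at 0 in all 6 samples, so how reads common to both were assigned is uncertain.

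Cd55, which speeds the decay of the C3-cleaving enzymes on the cell's own membrane, was the only one of the 8 tested genes with a lower mean in WT ECs. It was 2.96, 3.38 and 3.70 FPKM in WT 1, 2 and 3 and 4.03, 4.43 and 3.76 FPKM in Apelin-KO 1, 2 and 3. Every WT sample lay below every Apelin-KO sample, although WT 3 and Apelin-KO 3 were close. The means were 3.34 ± 0.371 FPKM and 4.07 ± 0.334 FPKM (SD, n = 3 each), and the log2 difference was -0.23 with a standard error of 0.11 (adjusted p = 0.573, limma). An exact permutation test gave p = 0.1 (two-sided), the smallest possible. Cd55 lies on chromosome 1 from 130439027 to 130462744 on the minus strand, and the antisense gene Gm16083 overlaps its first bases. Its paralog Cd55b was listed at 0 in all 6 samples.

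Counted together, 0 of the 8 tested complement genes had an adjusted p-value under 0.05 in limma, where Apln alone, 0.00912% of all genes tested, passed. At an unadjusted p-value under 0.05, 4 of the 8 (C1qa, C1qc, C3ar1 and C5ar1) were higher in WT ECs, against 5.17% of all genes tested, and 0 were lower, against 4.25%. The same 4 were also more than 2-fold higher, against 0.766% of all genes. Non-overlapping groups with WT on top were seen for C5ar1 alone, against 6.61% of all genes, and with WT at the bottom for Cd55 alone, against 7.77%. The median log2 difference of the 8 genes was 1.28, and that of all genes tested was -0.01. With 1 sample left out, the median of the 8 ranged from 0.81 (without WT 2) to 1.70 (without WT 3). The C1q chains and receptors share the same few high samples and do not count as separate evidence. Counts of members and of all genes both moved when 1 sample was left out. Those more than 2-fold higher at that p-value were 0 of the 8 without WT 2 (0.255% of all genes), 1 without WT 1 (0.356%), 1 without Apelin-KO 1 (0.274%), 1 without Apelin-KO 3 (0.721%), 3 without Apelin-KO 2 (1.09%) and 5 without WT 3 (2.02%). With the groups not overlapping in either direction, 2 of the 8 tested members were found with all samples, against 14.4% of all genes. The count was 7 without WT 3, against 30.0% of all genes, and 5 without Apelin-KO 2, against 27.4%.

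**Figure D2:**
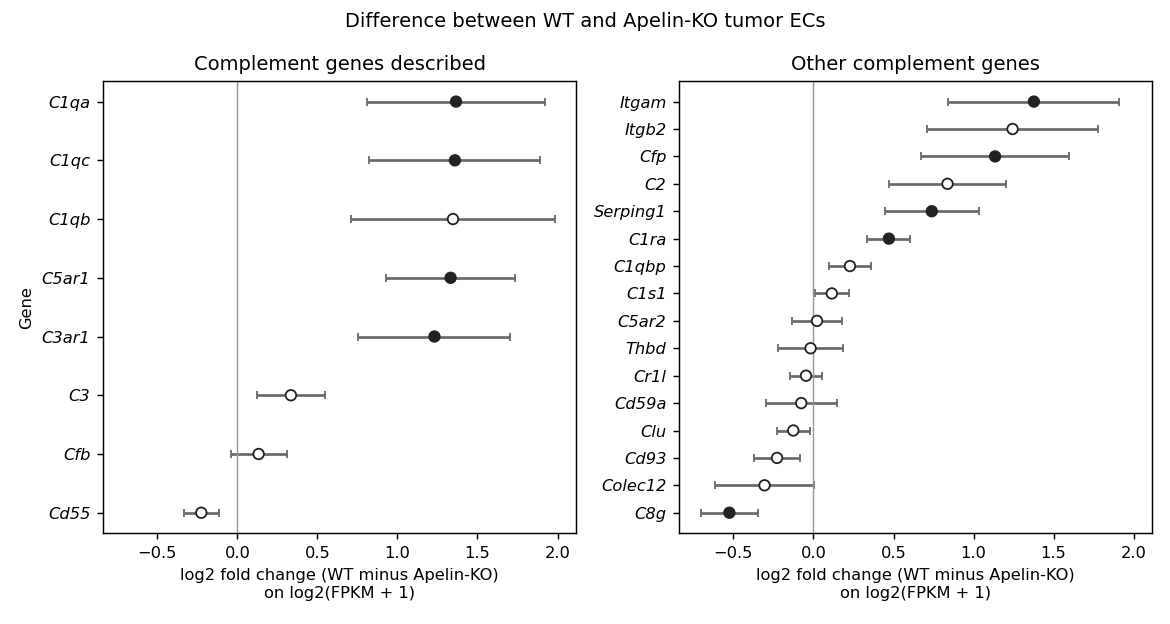
Log2 difference between WT and Apelin-KO ECs (points, WT minus Apelin-KO on log2(FPKM + 1)) with its standard error from limma (bars), for the 8 tested complement genes (left) and 16 of the 17 other tested genes of the complement system (right). Filled points have an unadjusted p-value under 0.05; the C1q chains, C5ar1 and C3ar1 lie between 1.23 and 1.37, whereas C3, Cfb and Cd55 lie between -0.23 and 0.33.

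The rest of the complement system was read from a list of 47 further genes, of which 17 reached a mean of 1 FPKM and 16 were listed at 0 in all samples. Of the 17, an unadjusted p-value under 0.05 was reached by 4 genes with higher WT levels, against 5.17% of all genes tested, and by 2 with lower WT levels, against 4.25%, and 0 had an adjusted p-value under 0.05 in limma. Their median log2 difference was 0.02. Among the initiators of the classical pathway, C1ra, a protease of the C1 complex, was 2.87, 2.72 and 2.89 FPKM in WT 1, 2 and 3 and 1.29, 2.05 and 2.02 FPKM in Apelin-KO 1, 2 and 3. These samples did not overlap, and the log2 difference was 0.47 with a standard error of 0.13 (adjusted p = 0.501). C2, which is cleaved together with C4, was 12.4, 5.44 and 7.79 FPKM in WT ECs and 2.61, 7.19 and 3.50 FPKM in Apelin-KO ECs, with overlap and a log2 difference of 0.84 (standard error 0.36, adjusted p = 0.527). C1s1 and the collectin Colec12 differed by 0.11 and -0.31. The liver-type lectins Mbl1 and Mbl2, Masp2 and Fcnb were listed at 0, as were C1rb and C1s2.

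Cfp encodes properdin, which stabilizes the alternative pathway enzyme and is made by leukocytes. It was 4.98, 5.95 and 1.07 FPKM in WT 1, 2 and 3 and 0.484, 1.69 and 1.04 FPKM in Apelin-KO 1, 2 and 3. As for C1q, WT 3 lay inside the Apelin-KO range, and the log2 difference was 1.13 with a standard error of 0.46 (adjusted p = 0.522). Cfd was listed at 0 in all samples. Of the terminal pathway only C8g reached the test, at 1.30, 0.472 and 1.001 FPKM in WT ECs and 1.68, 2.03 and 1.48 FPKM in Apelin-KO ECs. The groups did not overlap, with a log2 difference of -0.53 (standard error 0.18, adjusted p = 0.506). The genes for the other pore proteins, C6, C7, C8a, C8b and C9 and the C5 gene Hc, were all under 1 FPKM on average.

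Of the soluble regulators, Serping1, the inhibitor of the C1 proteases, was 95.9, 73.2 and 83.1 FPKM in WT 1, 2 and 3 and 36.6, 81.3 and 41.0 FPKM in Apelin-KO 1, 2 and 3. Apelin-KO 2 lay among the WT samples, and the log2 difference was 0.74 with a standard error of 0.29 (adjusted p = 0.517). Clusterin (Clu) differed by -0.13. Of the membrane regulators, thrombomodulin (Thbd) was 53.4, 68.2 and 82.7 FPKM in WT ECs and 84.6, 58.6 and 63.2 FPKM in Apelin-KO ECs, with a log2 difference of -0.02. Cr1l, the rodent regulator Crry, and Cd59a, which blocks the pore, differed by -0.05 and -0.08.

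The other receptor genes differed among themselves. Itgam and Itgb2 encode the chains of complement receptor CR3 of myeloid cells. Itgam was 6.28, 9.03 and 1.55 FPKM in WT 1, 2 and 3 and 0.380, 2.29 and 1.34 FPKM in Apelin-KO 1, 2 and 3, a log2 difference of 1.38 with a standard error of 0.53 (adjusted p = 0.515). Itgb2 was 6.60, 8.03 and 1.96 FPKM in WT ECs and 0.400, 3.50 and 1.43 FPKM in Apelin-KO ECs, a log2 difference of 1.24 with a standard error of 0.53 (adjusted p = 0.525). For both, WT 3 lay below Apelin-KO 2. Cd93, a surface protein of ECs once described as a C1q receptor, was 295, 327 and 412 FPKM in WT ECs and 381, 403 and 416 FPKM in Apelin-KO ECs, a log2 difference of -0.23 with a standard error of 0.14 (adjusted p = 0.643). C1qbp, which encodes a mitochondrial protein that binds C1q, differed by 0.23, and C5ar2, the second C5 fragment receptor, by 0.02.

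Markers of other cell types were read beside these values, since a gate for CD31+ CD45- cells should leave out leukocytes. Ptprc, which encodes CD45, was 3.13, 4.84 and 1.27 FPKM in WT 1, 2 and 3 and 0.043, 1.70 and 0.740 FPKM in Apelin-KO 1, 2 and 3. Of 10 macrophage markers, 9 were tested, and all 9 had a higher mean in WT ECs, as did 5209 of the 10964 genes tested. An unadjusted p-value under 0.05 was reached by 3 of the 9, against 5.17% of all genes for higher WT levels. Their summed level ranged from 154 to 514 FPKM in WT ECs and from 76.5 to 188 FPKM in Apelin-KO ECs. Lyz2 and Cd68 were the most abundant of them, Cd163 was under 1 FPKM and none was at 0 in all samples. All 8 pan-leukocyte markers were tested and higher in WT ECs in mean, 5 of them at that p-value, with sums of 139 to 406 FPKM against 74.4 to 163 FPKM. Both sums were highest in WT 2 and lowest in Apelin-KO 1, as were the C1q chains and receptors. The part of these cells in the C1q, C3ar1 and C5ar1 differences was not tested.

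Lists of other cell types were also read. Of the neutrophil markers, 5 of 6 were in the data, with sums of 1.06 to 2.39 FPKM in WT ECs and 1.13 to 3.37 FPKM in Apelin-KO ECs, and Cxcr2 and Mpo were at 0 in all samples. The 6 T cell markers summed to 0.716 to 1.90 FPKM and 0.236 to 1.54 FPKM, and the 6 epithelial markers of the tumor cells to 0.674 to 1.48 FPKM and 0.186 to 0.474 FPKM. The epithelial sums were thus low throughout but higher in all WT samples. The sorted cells carried the EC markers at high levels, with sums of 5807 to 7075 FPKM in WT and 7243 to 7802 FPKM in Apelin-KO ECs, and all 15 had a lower mean in WT ECs, 4 of them at an unadjusted p-value under 0.05, against 4.25% of all genes for lower WT levels. The 7 tested of 9 fibroblast markers were all higher in WT ECs in mean, 5 of them at that p-value, against 5.17% of all genes for higher WT levels (199 to 345 FPKM against 131 to 205 FPKM). Pericyte markers, 7 of 9 tested, were lower in WT ECs in 6, with 2 at that p-value, against 4.25% of all genes for lower WT levels. Their sums were 140 to 179 FPKM in WT and 190 to 217 FPKM in Apelin-KO ECs. Kcnj8 and Abcc9, with means of 85.5 and 69.1 FPKM, made up most of these sums and did not reach that p-value. The 2 that did, Rgs5 and Higd1b, averaged 5.61 and 4.39 FPKM.

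**Figure D3:**
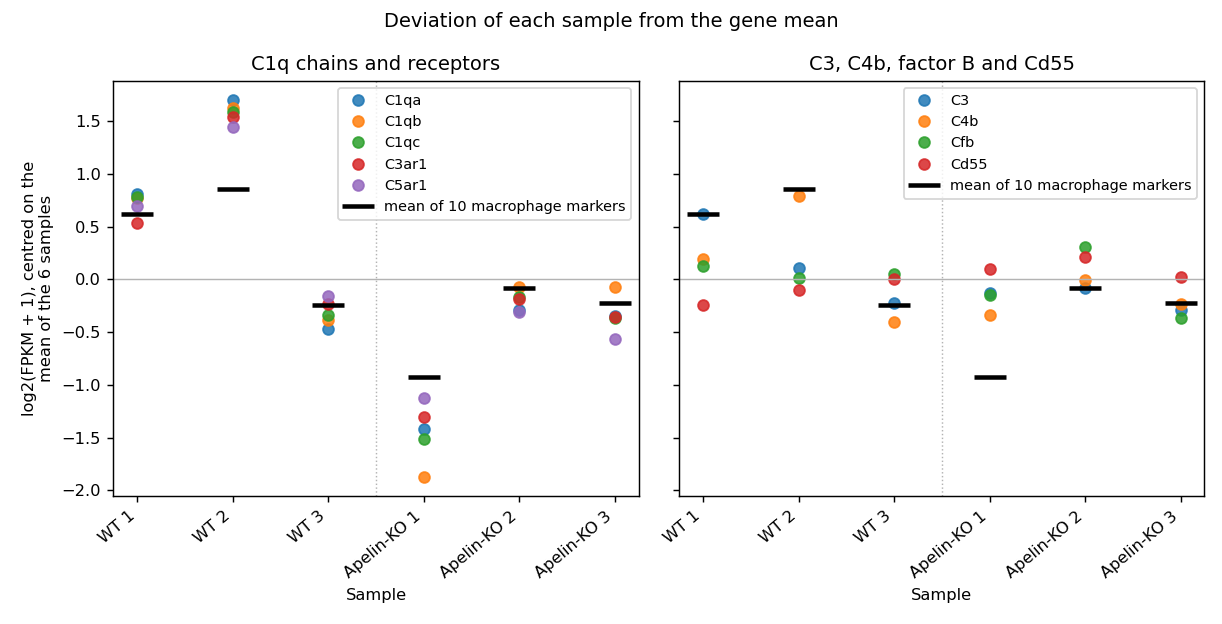
Deviation of each sample from the mean of the 6 samples on log2(FPKM + 1), for the C1q chains and receptors (left) and for C3, C4b, Cfb and Cd55 (right), with the mean of the 10 macrophage markers, low ones included, which damps its swings, as black bars in both panels. The 5 genes on the left move together with the black bars in direction, highest in WT 2 and lowest in Apelin-KO 1, while Cfb and Cd55 on the right do not.

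Differences of the macrophage markers were of similar size to those of C1q. The median log2 difference of the 9 tested markers was 1.19, where C1qa, C1qb and C1qc differed by 1.37, 1.35 and 1.36 and C3ar1 and C5ar1 by 1.23 and 1.33. Adgre1 differed by 1.30, and no test was made of the distance between the markers and the complement genes.

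The genes outside the set with the most similar profile were sought by the root-mean-square difference between centred log2(FPKM + 1) values over the 6 samples, in which 0 is an identical profile. For C1qa they were Adgre1 (0.12), Cx3cr1 (0.13) and Pld4 (0.14). For C1qc they were Adgre1 (0.07), Cx3cr1 (0.08) and Cybb (0.10), and for C1qb Lyz2 (0.15), Cybb (0.17) and Ly86 (0.18). Adgre1 encodes the macrophage surface protein F4/80 and was 11.7, 23.6 and 5.39 FPKM in WT ECs and 2.03, 6.41 and 4.95 FPKM in Apelin-KO ECs. The closest to C3ar1 were Cd48 (0.06), Adgre1 (0.09) and Cx3cr1 (0.14), and those close to C5ar1 included Clec12a (0.08) and Cd53 (0.09). Among the members, C1qa and C1qc were closest to each other (0.10).

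The remaining genes had other neighbours. Cfb, with a spread of 0.21, was closest to Ift122 (0.05), Ddx60 (0.05) and Antxr2 (0.07). Cd55, with a spread of 0.14, was closest to Pggt1b (0.04), Bicc1 (0.04) and Zdhhc18 (0.05). C3 was closest to 1810055G02Rik (0.10), Fbn1 (0.10) and Vash2 (0.12), and C4b to Slc19a1 (0.07), Gyk (0.08) and Rnf128 (0.09). With small spreads, small differences in profile are easily reached by many genes, and with 6 samples the order of such neighbours is a description.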

How the data were processed

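Global transcripts of sorted tumor ECs were measured in 3 WT and 3 Apelin-KO samples with stranded mRNA libraries and 75-base single-end reads. The authors aligned to mm10 (TopHat, Bowtie2, SAMtools), and Cufflinks 2.2.1 then gave their deposited FPKM. The versions that the submitters' processing notes give for the other tools are 2.1.1, 2.2.4 and 1.0, and those in the methods differ. The annotation and the strand setting are not given in the sources used here. The deposited FPKM were used as they are, and values of 0 may be failed estimates.

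The genotypes were compared on log2(FPKM + 1) by the moderated, two-sided test of limma 3.58.1 (R 4.3.3). Genes averaging under 1 FPKM were left out, and p-values were adjusted by Benjamini-Hochberg over every gene tested. Single genes were also given an exact permutation test. limma, which pools the variance across genes, was used in place of the unmoderated test of the methods. Depth was estimated from genes with 1 annotated GENCODE transcript, as the read number at which the largest share of low values came within 0.1 of a whole read, with 200-base fragments assumed. The reads of a member were then estimated from its longest coding transcript, and no count test was run. The fits and the depth estimate were checked on simulated data. Python 3.11.15 with numpy 2.4.6 and pandas 2.3.3 was used for the rest.

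The members and the lists of other complement genes and cell markers were chosen with earlier results of these data known. All members are named. Of the other complement genes, those averaging 1 FPKM or more are named, with each sample's value where the unadjusted p-value was under 0.05, the difference was more than 2-fold or the gene had the highest mean of its class. For each member the 3 genes of the most similar profile are named. 1 gene of each of these kinds is not reported here. Values of Ptprc and Adgre1 and the names of genes listed at 0 or under 1 FPKM were added after their values were seen. Shares over all genes with 1 sample left out were added after the data were seen. Alternatives changed the pseudocount, the filter, the scaling, the variance, the samples or the pairing.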

Additional observations from a re-analysis of the deposited data

How the results depend on the processing

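Under all 15 alternatives, 0 of the tested members had an adjusted p-value under 0.05, and the median of the members kept its direction. The number of members more than 2-fold apart at an unadjusted p-value under 0.05 was 4, and became 2 with a pseudocount of 0.01 or 0.1, 1 without a filter and 0 with each gene's own variance. Over all genes, those more than 2-fold higher at that p-value numbered 84 of 10964, and 156 and 157 with these pseudocounts, 66 of 16341 without a filter and 21 with own variance, so with the pseudocounts the count of members was lower while that of all genes was higher. When 1 sample was left out, the count of members ranged from 0 to 5. The 6 other complement genes at an unadjusted p-value under 0.05 (9.42% of all genes tested) became 3 with a pseudocount of 0.01 or 0.1 (8.54% and 8.75%), 2 of 9 with a minimum mean of 5 FPKM (9.23%), 1 with each gene's own variance (7.14%), 5 with quantile normalization (9.54%) and 8 with an intensity trend (1098 of 10964 genes). They ranged from 2 to 7 when 1 sample was left out (4.91% to 11.2%). The members whose groups did not overlap, C4b included, were 2 and ranged from 2 to 8 when 1 sample was left out, while such genes made up 14.4% of all genes tested with all samples and 20.2% to 30.0% with 1 left out. Cfb ranged from -0.015 (without Apelin-KO 3, a change of sign) to 0.32 (without Apelin-KO 2). No other tested member changed direction, and C4b, outside the test, ranged from 0.08 to 0.68 when 1 sample was left out. The cause of these changes was not tested. Same-numbered samples correlated at -0.14, 0.21 and -0.02 in their deviations from the group means, and differently numbered ones at between -0.20 and 0.21. With 3 samples a group, whose deviations sum to 0, these values cannot decide whether the numbers pair the samples. With the replicate block, 4 members were more than 2-fold apart and 6 other complement genes were at an unadjusted p-value under 0.05, and 88 genes in place of 84 were more than 2-fold higher over all genes. Estimated reads were lowest for C4b, down to 9.84 in a sample, and C5ar1, C1qa, Cd55, C3 and C3ar1 were each at 70.5 or fewer in their lowest sample, and 3 samples a group cannot give an exact permutation p under 0.1.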
